A study of Mus musculus with 48 samples.

Results

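Neuropeptide precursor genes encode the prohormones from which neurons cut the peptides they release from dense-core granules, and 38 such genes of the mouse were followed here in the amygdala by name, among them Cck, the gene of cholecystokinin. The list was fixed by function and without a threshold on any measured value. It was matched by gene symbol in an annotation of GRCm38, which found 37 of the 38 genes in a count table of 48440 genes, and 29 of these passed the filter for testing, as did 22615 genes of the whole table. Kiss1, the gene of kisspeptin, was the unmatched one, so that its counts were not analysed here and only its promoter is included below.

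Male C57BL/6 mice (C57BL/6N in the methods of the study) of 4 months came from Tph2+/- parents and carried Tph2, the gene of the enzyme that makes serotonin in the brain, in 2 (Tph2+/+), 1 (Tph2+/-) or no (Tph2-/-) functional copies from conception on and in every cell. Their litters were either separated from the dams for 3 h a day from postnatal day 2 to day 15 (maternal separation, MS) or left undisturbed in this respect (control, C), which made 6 groups of 8 mice. All mice had gone through the same battery of tests of anxiety, locomotion and aggression before the amygdalae of both hemispheres were taken as bulk tissue. The litter of each mouse was not given in the sources used here, so that the tests treat littermates as separate samples.

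Neuropeptides act on G protein-coupled receptors, over longer distances and times than the fast transmitters, and a neuron usually makes them beside glutamate or GABA. In the amygdala, cholecystokinin, neuropeptide Y, somatostatin and vasoactive intestinal peptide mark classes of interneurons, while enkephalin, corticotropin-releasing hormone, tachykinins and neurotensin are made by neurons of its central nucleus, the output of the region for fear and feeding. Peptides such as orexin and agouti-related peptide belong to cell bodies of the hypothalamus, where vasopressin and oxytocin are made as well. Granins, here Chga, Scg2 and Vgf, are the cargo and source of peptides of the granules themselves.

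Many of these genes are switched on by cyclic AMP through the factor CREB, which binds the palindrome TGACGTCA (cyclic AMP response element) or its shorter form TGACG, read as CGTCA on the other strand. In the RefSeq promoters of build GRCm38.p6, which run from 250 bases before to 50 bases after the start, 28 of the 38 genes had an entry. The palindrome stood in 4 of the 28 (14.3%), against 2.03% of the 27025 genes with a promoter, and the shorter form on either strand, counted also within the palindrome, in 16 of them (57.1%) against 23.0%. These shares describe the letters of the promoters, and no measurement of these mice bears on binding there. Stretches of 30 bases from the genes on which the results below turn (Cck, Scg2 and Chga) and from Sst, the gene of somatostatin and a known example of the palindrome, are given with the match in capitals, 5′ to 3′ on the strand of the gene.
Cck (chr9:121495724-121495753, minus strand): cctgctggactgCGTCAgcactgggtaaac
Scg2 (chr1:79440076-79440105, minus strand): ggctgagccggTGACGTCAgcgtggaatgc
Chga (chr12:102554885-102554914, plus strand): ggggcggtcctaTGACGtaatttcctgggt
Sst (chr16:23890874-23890903, minus strand): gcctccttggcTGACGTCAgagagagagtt

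The libraries held between 609489 and 6296568 counts on genes (median 738490), and a median of 97.5% of the uniquely placed read pairs lay on no gene. The kit kept the strand of the RNA, and the strand setting of the counting was not given in the sources used here. In 1439 of 1827 pairs of a protein-coding gene and a non-coding gene that lie at least 100 exonic bases opposite to each other (78.8%), the non-coding gene had more counts, with a median of 30.7 against 2.58. Genes abundant in brain were low, with means of 8.5 counts for Snap25 and 7.10 for Actb, and Tph2 had no more than 1 count in any mouse, and so gave no check of the genotypes. Counting on the strand opposite to the RNA would give values of this kind, which was not tested, and in that case the counts under the name of a gene are not those of its mRNA. The counts below are therefore given as the read pairs that the deposited table assigns to a gene, and no more is read from them. In bulk tissue fewer cells of a type and less RNA per cell cannot be told apart.

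Counts on the neuropeptide genes were few (plot of mean counts by gene and group). All of them together had 3400 counts in the 48 mice, and Vgf, Scg2 and Agrp took 67.3% of these. Only these 3 had a mean of at least 10 counts per mouse, and 11 of the 37 had a mean of at least 1. Another 18 were tested with a mean below 1 count. Avp, Oxt, Cartpt and Npw, the genes of vasopressin, oxytocin, the CART peptides and neuropeptide W, had no count in any mouse. In the median library 3 counts, the upper limit that a count of 0 allows, correspond to 3.91 CPM (counts scaled to the library size after TMM). Tac2, Nms, Nps and Ucn3, which encode neurokinin B, neuromedin S, neuropeptide S and urocortin 3, had counts in 6, 2, 1 and 1 mice and were not tested. The median of the mean counts was 0.771 for the tested neuropeptide genes and 2.23 for all genes tested, and per kilobase of exon the medians were 0.912 and 1.1 CPM. Most peptides that mark interneurons were at the low end, with means of 0.25 counts for Npy, 0.208 for Sst and 0.396 for Vip.

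**Figure D1:**
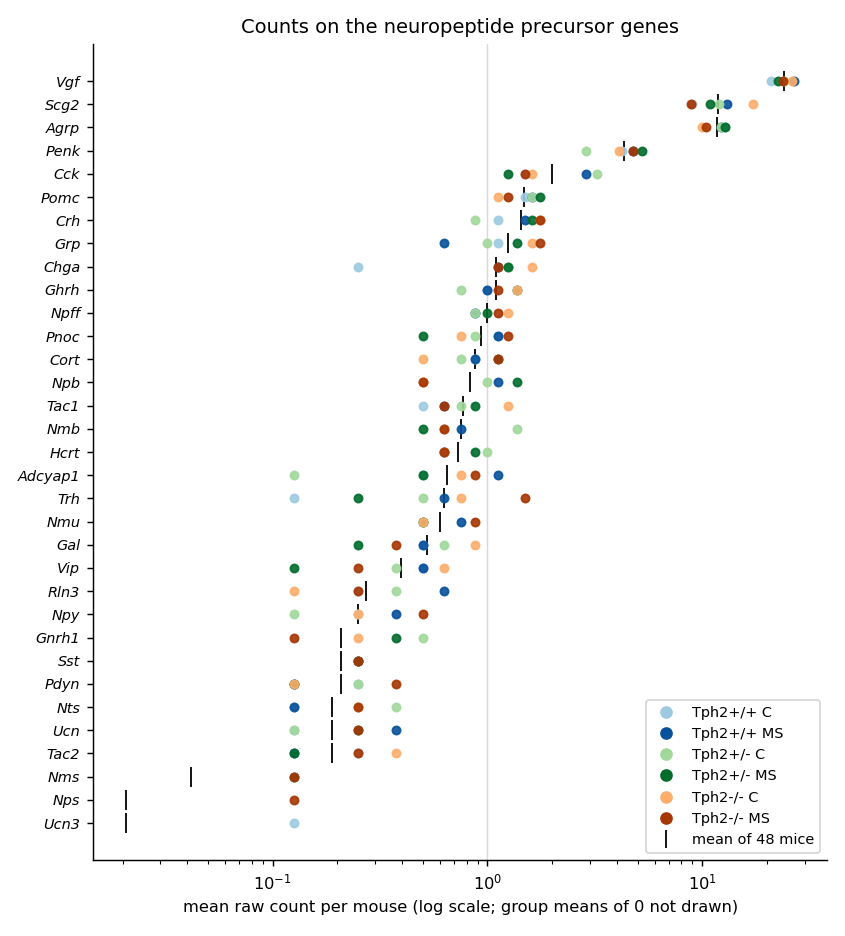
Mean raw count per mouse (log scale) of the 33 neuropeptide precursor genes with any count, ordered by the mean of 48 mice (black bar), with a point for each of the 6 groups of 8 mice and group means of 0 left out. Vgf, Scg2 and Agrp stand above 10 counts and 11 genes reach a mean of 1.

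The mean counts per mouse of the 11 genes ran from 1 for Npff to 24.1 for Vgf. Their variance within groups was between 0.772 and 3.71 times the mean, where counting alone gives a ratio of about 1, and the highest ratio was that of Scg2.

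Of the granins, Vgf, which encodes a precursor of peptides that act on energy balance and synapses, was the most counted gene. Its raw counts ran in Tph2+/+ mice from 13 to 25 (median 22) under C and from 14 to 36 (28.5) after MS, in Tph2+/- mice from 12 to 33 (24.5) under C and from 17 to 29 (22) after MS, and in Tph2-/- mice from 18 to 36 (23.5) under C and from 15 to 31 (23.5) after MS. The 6 groups overlapped throughout. The differences between groups (log2 fold change, lg2FC) lay between -0.24 and 0.16 in the 7 comparisons of single groups, each with a standard error of 0.18, and none passed the test.

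Scg2 encodes secretogranin II, the source of secretoneurin. Its raw counts were in Tph2+/+ mice 1 to 15 (median 9) under C and 6 to 27 (12) after MS, in Tph2+/- mice 0 to 29 (10) under C and 0 to 20 (11) after MS, and in Tph2-/- mice 10 to 25 (15.5) under C and 4 to 20 (7) after MS. The Tph2-/- C mice were high and the Tph2-/- MS mice low, with 7 of the latter at or below 14 counts, and the ranges of both groups overlapped. In Tph2-/- mice Scg2 had 21.3 ± 7.77 CPM (SD, n = 8) under C and 11.3 ± 7.59 after MS, a lg2FC of -0.92 (standard error 0.39, 95% interval -1.68 to -0.162, adjusted p = 0.88 by the quasi-likelihood test of edgeR). The interaction GE2, in which the MS effect in Tph2+/+ is taken from that in Tph2-/-, had a lg2FC of -1.29 (standard error 0.56, 95% interval -2.39 to -0.197, adjusted p = 0.901). Neither passed the threshold of the study for a differentially expressed gene (DEG), a nominal p below 0.01 with an absolute lg2FC above 0.2. Both passed it with DESeq2, with the mice of the compared groups alone and without robust estimation. They passed as well with the replicate number as a block (-1.32 for GE2 and -0.91 for MS), with which Scg2 was also called for Tph2-/- against Tph2+/+ under C. Both also passed without Tph2-/- MS replicate 7, the mouse with 20 counts, where lg2FC was -1.61 for GE2 and -1.24 for MS, and without Tph2+/- C replicate 4, the control at 0 counts, which is part of neither comparison and without which lg2FC was nearly as before. The MS effect alone passed without Tph2+/+ MS replicate 8 or Tph2+/- MS replicate 6, which are likewise no part of it. Neither GE2 nor MS in Tph2-/- passed without a filter on low counts, with stricter filters, DESeq2's size factors, Gm42418 left out or Lars2 kept. The same held after 7 control mice, those numbered above all other animals, were dropped (-1.6 for GE2 and -1.09 for MS). Without the 4 libraries richest in Gm42418 they were -1.15 and -0.82 and did not pass. Among these 4 is Tph2-/- C replicate 1, the highest mouse of its group for Scg2 at 31.3 CPM.

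Markers of neurons and of oligodendrocytes stood highest in the same group as Scg2. The summed level of 5 markers of neurons (Snap25, Syt1, Rbfox3, Stmn2 and Tubb3) had a median of 50.5 CPM (25.6 to 73.1) in Tph2-/- C against 35.8 (16.7 to 51.5) in Tph2+/+ C and 35.7 (20.4 to 59.5) in Tph2-/- MS. Of the 5 only Syt1 passed the thresholds in any comparison (Tph2-/- against Tph2+/+ under C, lg2FC = 0.69, standard error 0.25, adjusted p = 0.847). Of 3 markers of inhibitory neurons (Gad1, Gad2 and Slc32a1) only Gad1 passed the thresholds in any comparison (GE2, lg2FC = -1.37, standard error 0.53, adjusted p = 0.901). The summed level of these 3 had a median of 13.8 CPM in Tph2-/- C and 11.4 in Tph2-/- MS, with overlapping ranges. The summed level of 4 markers of oligodendrocytes had a median of 79.4 CPM (63.3 to 97.7) in Tph2-/- C against 68.7 (42.9 to 82.1) in Tph2+/+ C and 66.3 (44.8 to 117) in Tph2-/- MS. The part of either cell type in the Scg2 values was not tested.

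**Figure D2:**
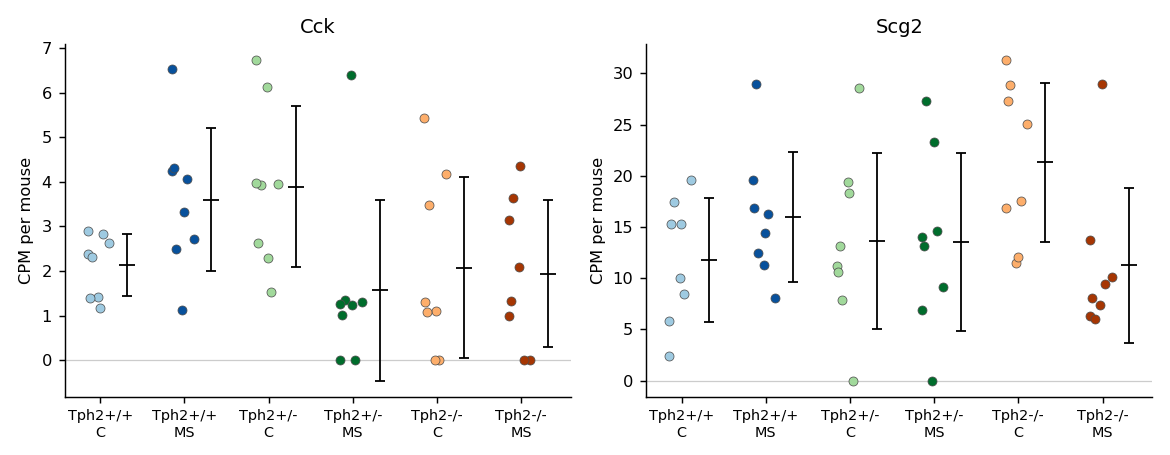
CPM per mouse of Cck (left) and Scg2 (right) in the 6 groups, 1 point per mouse, with the mean and SD of 8 mice beside the points. The Tph2+/- MS mice lie low for Cck except for 1 mouse at 6.39 CPM, and the Tph2-/- C mice lie high for Scg2.

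Chga encodes chromogranin A and had few counts. In Tph2+/+ mice they were 0 to 2 (median 0) under C and 0 to 4 (1) after MS, in Tph2+/- mice 0 to 3 (1) under either treatment, and in Tph2-/- mice 0 to 5 (1) under C and 0 to 4 (1) after MS. Only 1 of the Tph2+/+ mice had any count under C, while 5 or 6 of 8 had one in each other group. Against Tph2+/+ under C, lg2FC was 2.07 in Tph2-/- (standard error 0.85, adjusted p = 0.857) and 1.75 in Tph2+/- (standard error 0.88, adjusted p = 0.75), neither of them a DEG. Without Tph2+/+ C replicate 2, the mouse that held the 2 counts, these values were 3.75 and 3.45 and passed the threshold, as did GE1, GE2 and MS in Tph2+/+, against a group at 0 in all mice, where a fitted lg2FC depends on the prior count. The Tph2-/- value also passed without Tph2-/- C replicate 1 or 3. When 7 control mice, those numbered above all other animals, were dropped it was 1.19 and did not pass.

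Cck was the gene that the study itself singled out on these mice, so its values are no independent evidence. It had 96 counts in 42 mice. These were in Tph2+/+ mice 1 to 2 per mouse (median 1.5) under C and 1 to 5 (3) after MS, in Tph2+/- mice 1 to 6 (2.5) under C and 0 to 5 (1) after MS, and in Tph2-/- mice 0 to 4 (1) under C and 0 to 3 (1.5) after MS. All mice of the first 3 groups had a count and 2 of 8 had none in each of the others. After MS, 7 of 8 Tph2+/- mice had 0 or 1 count while the eighth had 5, so that every pair of groups overlapped.

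In Tph2+/+ mice Cck had 2.13 ± 0.693 CPM (SD, n = 8) under C and 3.6 ± 1.6 after MS, a lg2FC of 0.72 with a standard error of 0.56 (adjusted p = 0.893). In Tph2+/- mice it had 3.90 ± 1.81 CPM under C and 1.57 ± 2.03 after MS, a lg2FC of -1.29 with a standard error of 0.56 (adjusted p = 0.928). For GE1, in which the MS effect in Tph2+/+ is taken from that in Tph2+/-, lg2FC was -2.01 (standard error 0.79, 95% interval -3.56 to -0.462) with an adjusted p of 0.521 over all 22615 genes, just outside the threshold for a DEG. In Tph2-/- mice the levels were 2.07 ± 2.03 CPM under C and 1.94 ± 1.65 after MS, with a lg2FC of -0.08 (standard error 0.61) for MS and of -0.80 (standard error 0.84, adjusted p = 0.948) for GE2. The GE1 and GE2 values share the Tph2+/+ mice.

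The side of the threshold on which Cck fell in GE1 turned on small choices. It passed with DESeq2's size factors, with DESeq2, with Gm42418 left out beside Lars2, with Lars2 kept, without robust estimation, in the 4 groups of the contrast alone and when any 1 of 19 libraries was left out, where its lg2FC lay between -2.78 and -2.01. It did not pass with the replicate number as a block (-1.95), which does not pair these mice, after these 7 control mice were dropped (-2.07), without a filter on low counts (-2.01) or without the 4 libraries richest in Gm42418 (-2.11). The most negative value was that without Tph2+/- MS replicate 6, the mouse with 5 counts, where lg2FC was -2.78 for GE1, -2.05 for MS in Tph2+/- and -1.86 for Tph2+/- against Tph2+/+ after MS, and all 3 passed. Slc17a7, a marker of excitatory neurons with a mean of 2.1 counts, had a lg2FC of -2.81 for GE1 (standard error 0.85, adjusted p = 0.271), of 1.77 for MS in Tph2+/+ (standard error 0.66, adjusted p = 0.515) and of 2.10 for Tph2+/- against Tph2+/+ under C (standard error 0.64, adjusted p = 0.514). All 3 passed the thresholds, while the other 3 markers of the list did not pass the thresholds in any comparison. The summed level of the 4 markers had medians of 14.4 CPM under C and 11.5 after MS in Tph2+/+ mice, and of 16.4 and 10.9 in Tph2+/- mice. Their part in the Cck values was not tested.

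**Figure D3:**
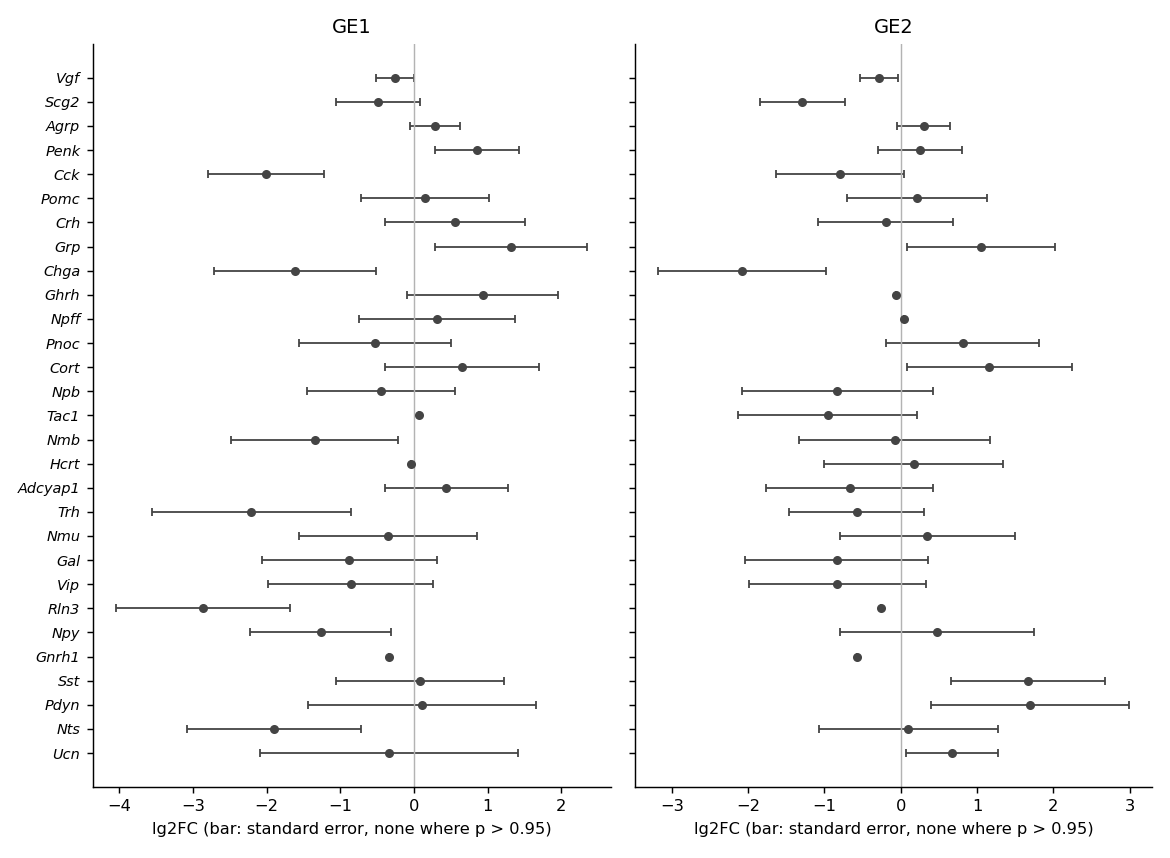
lg2FC of the 29 tested neuropeptide precursor genes for GE1 (left) and GE2 (right), ordered by mean count with Vgf at the top. Bars are standard errors and are left out where nominal p exceeded 0.95, since the standard error is then not defined by the test, and no gene passed the threshold for a DEG in either contrast.

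The pattern of Cck, a higher mean level after MS in Tph2+/+ with a lower one in Tph2+/-, was common among genes of like count. Of 6297 tested genes with a mean between 1 and 4 counts, 1745 (27.7%) had it in CPM and 29.9% in raw counts, against 24.9% of all genes tested. A change of at least 1.5-fold both ways, as Cck had, was seen in 254 of them (4.03%). In this range 66 genes (1.05%) passed the threshold for GE1, 50 of them with a lower lg2FC, and Cck ranked 74 by p (1.18%).

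The range held 7 neuropeptide genes, and Cck was the only one of them with the pattern (plot of both MS contrasts). Of all 29 tested neuropeptide genes 8 (27.6%) had it, namely Cck, Npy, Sst, Trh, Nmb, Rln3, Scg2 and Vgf. The group means most like those of Cck were those of Nmb (Pearson's r = 0.86 over 6 group means), Rln3 (0.76) and Nts (0.51), all with a mean below 1 count. Values of like size had the opposite sign, with -0.93 for Ghrh, -0.85 for Grp, -0.67 for Penk and -0.64 for Crh, and no more than the order is read from them. Nmb, the gene of neuromedin B, summed to 5 counts under C and 6 after MS in Tph2+/+ mice and to 11 and 4 in Tph2+/- mice, and its exons share 163 bases with Sec11a on the same strand.

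**Figure D4:**
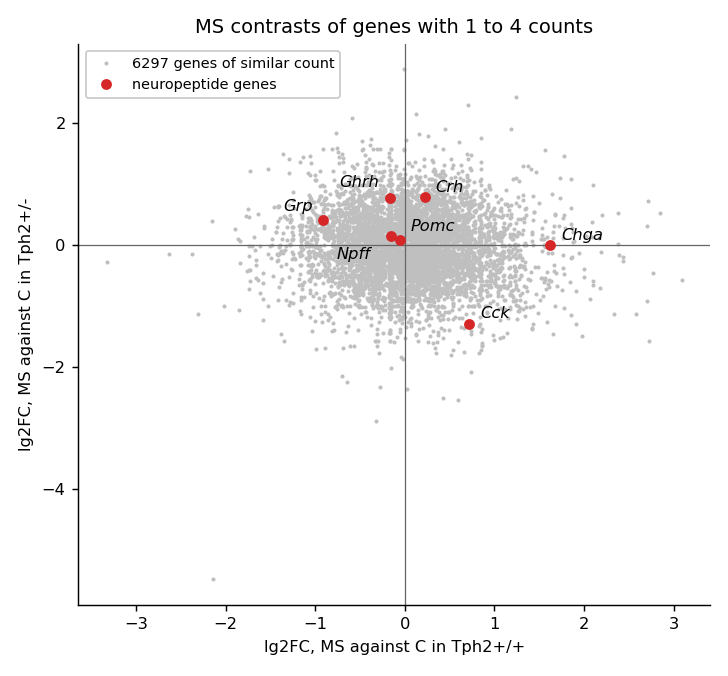
lg2FC of MS against C in Tph2+/+ (x axis) and in Tph2+/- (y axis) for the 6297 genes with a mean of 1 to 4 counts (grey), with the 7 neuropeptide precursor genes of that range in red. Cck lies at the lower right and the other 6 do not lie clearly within it, with Chga on the x axis.

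The other genes of that range did not pass the test in any comparison. Pomc, the precursor of melanocortins and beta-endorphin, had 0 to 4 counts (median 1.5) in Tph2+/+ mice under C and 0 to 3 (2) after MS, in Tph2+/- mice 0 to 4 (1.5) under C and 0 to 4 (2) after MS, and in Tph2-/- mice 0 to 2 (1) under C and 0 to 5 (0.5) after MS. Its GE1 was 0.15 (standard error 0.87) and its GE2 0.21 (standard error 0.92), both smaller than their errors.

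Crh, the corticotropin-releasing hormone that drives the stress axis, had 0 to 3 counts in the 4 groups of Tph2+/+ and Tph2+/- mice, with medians of 1 under C and 1.5 after MS in Tph2+/+ and of 1 and 2 in Tph2+/-. In Tph2-/- mice it had 1 to 3 counts under C (median 1.5) and after MS (2). Every Tph2-/- mouse had a count while 2 or 3 of 8 had none in the other groups. Its lg2FC for MS was 0.22 (standard error 0.67) in Tph2+/+ and 0.79 (standard error 0.68) in Tph2+/-.

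Grp, the gastrin-releasing peptide, had 0 to 3 counts in 5 groups and 0 to 2 in Tph2+/- C. Its medians were 1 under C and 0 after MS in Tph2+/+, 1 and 1.5 in Tph2+/-, and 2 under either treatment in Tph2-/-. Its largest difference was that of Tph2-/- against Tph2+/+ after MS, with a lg2FC of 1.34 with a standard error of 0.72 (adjusted p = 0.809). The threshold was reached there only without Tph2+/+ MS replicate 7, the mouse with 3 counts.

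Ghrh, the growth hormone-releasing hormone, had a median of 1 count in each group, with 0 to 3 under C and 0 to 2 after MS in Tph2+/+ mice, 0 to 2 and 0 to 4 in Tph2+/- mice, and 0 to 4 and 0 to 2 in Tph2-/- mice. Npff, the source of the opioid-modulating neuropeptide FF, had 0 to 2 counts in Tph2+/+ mice of either treatment, 0 to 2 under C and 0 to 3 after MS in Tph2+/- mice, and 0 to 4 in Tph2-/- mice of either treatment. Its median was 0.5 in Tph2+/- MS and 1 in the others. GE1 was 0.93 for Ghrh (standard error 1.03) and 0.31 for Npff (standard error 1.06), both smaller than their errors, and exons of Npff share 327 bases with Gm28047 on the same strand.

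Penk encodes the enkephalins. Its raw counts were in Tph2+/+ mice 1 to 9 (median 4) under C and 2 to 9 (4) after MS, in Tph2+/- mice 0 to 5 (3) under C and 1 to 9 (6.5) after MS, and in Tph2-/- mice 2 to 8 (4) under C and 0 to 9 (4.5) after MS. In Tph2+/- the level was higher after MS, with 6.40 ± 3.90 against 3.38 ± 1.77 CPM (SD, n = 8) and a lg2FC of 0.83 with a standard error of 0.41 (adjusted p = 0.928), and the 2 groups overlapped. It did not pass the threshold.

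The first exon side of Penk lies opposite to A830012C17Rik, a non-coding gene on the plus strand of chromosome 4 that shares 233 exonic bases with it. A830012C17Rik had a mean of 137 counts (64 to 384), 31.7 times the mean of Penk, and more counts than Penk in 48 of 48 mice. In CPM its median was in Tph2+/+ mice 184 under C and 217 after MS, in Tph2+/- mice 140 under C and 130 after MS, and in Tph2-/- mice 159 under C and 141 after MS. It did not pass the threshold in any comparison, with a GE1 of -0.24 (standard error 0.40) beside 0.85 (standard error 0.57) for Penk. How far reads of the enkephalin mRNA are counted on either gene was not tested.

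**Figure D5:**
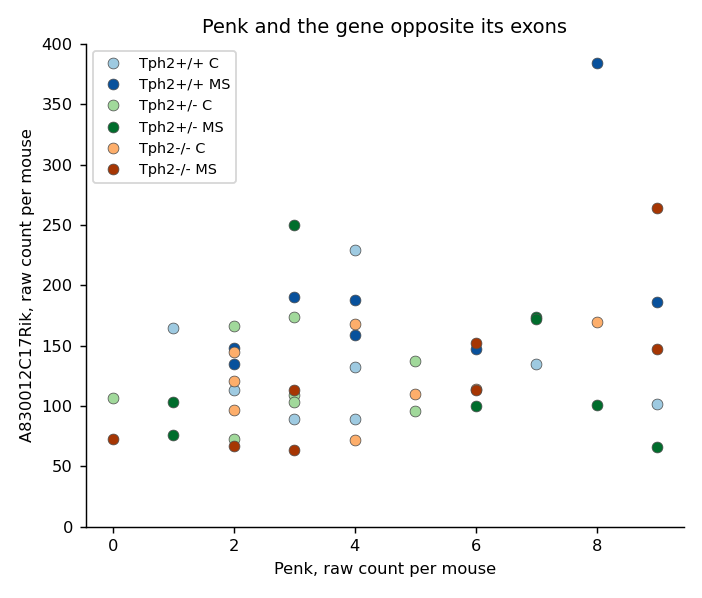
Raw counts per mouse of Penk (x axis) and of A830012C17Rik (y axis), the gene opposite to its exons, with 1 point for each of 48 mice coloured by group. A830012C17Rik lies between 64 and 384 counts where Penk has 0 to 9.

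Agrp encodes the agouti-related peptide of the arcuate nucleus. It was the only peptide gene with counts in every mouse beside Vgf, with 9 to 20 (median 11) in Tph2+/+ mice under C and 7 to 21 (11.5) after MS, in Tph2+/- mice 4 to 19 (12.5) under C and 9 to 21 (11) after MS, and in Tph2-/- mice 7 to 13 (10) under C and 4 to 18 (11) after MS. Per kilobase of exon it had the highest level of the neuropeptide genes, 14.8 CPM, against 10.2 for Vgf and 5.80 for Scg2. For Tph2-/- against Tph2+/+ under C its lg2FC was -0.54 with a standard error of 0.25 (adjusted p = 0.884), which did not pass the threshold, and -0.29 when the 7 control mice numbered above all others were dropped.

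The annotated gene of Agrp spans from 105566698 to 105637393 on the minus strand of chromosome 8 and lies with 114 exonic bases opposite to Ctcf, which encodes a factor that folds chromatin. It shares 114 exonic bases with Gm5914 on its own strand as well. Ctcf had a mean of 27.1 counts, with medians of 23 in Tph2+/+ mice under C and 36.5 after MS, in Tph2+/- mice 29 under C and 28 after MS, and in Tph2-/- mice 29.5 under C and 26 after MS, and passed the threshold for GE2 (lg2FC = -0.66, standard error 0.24, adjusted p = 0.901). Agrp had a GE2 of 0.30 (standard error 0.35). Other genes of peptides made in the hypothalamus, though not all of them only there, whose exons no other gene overlaps, had mean counts of 1.48 for Pomc, 1.10 for Ghrh, 0.729 for Hcrt (orexin), 0.625 for Trh (thyrotropin-releasing hormone) and 0 for Avp and Oxt. Pmch, the gene of melanin-concentrating hormone and not among the 38 genes, had a mean of 7.88 counts.

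Across the 9 comparisons, 1 of the 261 tests of a neuropeptide gene passed the threshold and 16 (6.13%) had a nominal p below 0.05, against 5.95% over all genes, and no adjusted p was below 0.521. No neuropeptide gene passed for GE1, where 1.88% of all genes tested did, for GE2 (0.999%), for MS in Tph2+/+ (1.71%), in Tph2+/- (1.05%) or in Tph2-/- (1.1%), for Tph2+/- or Tph2-/- against Tph2+/+ under C (1.51% and 1.01%), or for Tph2-/- against Tph2+/+ after MS (1.63%). A nominal p below 0.05 was found for 2 genes in GE1 (7.23% of all genes tested), for 1 in GE2 (5.32%), and for MS for 0 genes in Tph2+/+ (6.53%), 4 in Tph2+/- (5.36%) and 1 in Tph2-/- (5.6%). Against Tph2+/+ under C it was found for 2 genes in Tph2+/- (6.19%) and 2 in Tph2-/- (5.05%), and after MS for 4 in Tph2+/- (5.72%) and 0 in Tph2-/- (6.57%). DESeq2 called Cck in GE1 and Scg2 in GE2 and for MS in Tph2-/-. The median lg2FC of the 29 genes was -0.34 for GE1 and -0.06 for GE2, and 0.02 and -0.02 over all genes tested. For GE1 12 of the 29 genes were higher and 17 lower. A mean below 1 count was found for 18 of them, and fits with groups without a count, which depend on the prior count, enter these medians. No shift of the set is therefore read from them.

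The gene that passed was Rln3, the gene of relaxin-3, a peptide of brainstem neurons, for Tph2+/- against Tph2+/+ after MS (1.21% of all genes tested). Its 13 counts fell in 12 mice, with sums of 2 in Tph2+/+ mice under C and 5 after MS, in Tph2+/- mice 3 under C and 0 after MS, and in Tph2-/- mice 1 under C and 2 after MS. No mouse had more than 2. The fitted lg2FC of -2.58 (standard error 0.92, adjusted p = 0.772) is set against a group without a count and depends on the prior count, so that it gives no size. With DESeq2 it was not called, nor was it without the 4 libraries richest in Gm42418 or when any of 12 libraries, among them each of the Tph2+/- MS mice, was left out.

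Nts (neurotensin), Npy and Gnrh1 (gonadotropin-releasing hormone), the others with a nominal p below 0.05 in 1 or 2 comparisons, had 9, 12 and 10 counts in all 48 mice. For each of them a group with no count was one side of the comparison, so that no size is given. None passed the threshold under any alternative that was tried.

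Summed over the neuropeptide genes, the level per mouse started at 71.55 CPM (median 87.19) in Tph2+/+ mice under C and ran from 82.51 to 109.6 (92.01) after MS, in Tph2+/- mice from 51.25 to 102.7 (86.87) under C and from 71.15 to 103.7 (83.85) after MS, and in Tph2-/- mice from 69.13 to 118.4 (94.89) under C and from 70.61 to 104.4 (80.42) after MS. All groups overlapped and their medians lay between 91.2% and 108% of the median of all mice. The sum rests on Vgf, Scg2 and Agrp. Without the granins Vgf, Scg2 and Chga the highest median, that of Tph2-/- C, became the lowest with 37.57 CPM against 42.65 in all mice. Without Vgf, Scg2 and Agrp the sums had medians between 26.69 CPM in Tph2-/- C and 31.15 in Tph2-/- MS.

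Of 28 tested genes that cut, sort or release prohormones or break peptides down, 2 passed the threshold for GE2 (0.999% of all genes tested), 1 for GE1 (1.88%), 1 for MS in Tph2+/+ (1.71%), 1 for Tph2+/- against Tph2+/+ after MS (1.21%) and none in the other 5 comparisons. The most counted ones did not pass in any, with mean counts of 105 for Cpe (carboxypeptidase E), 57.9 for Dpp4 (a peptidase of the cell surface) and 19.2 for Chgb (chromogranin B). Chgb had the direction of Scg2 and Chga for Tph2-/- against Tph2+/+ under C, with 31.3 ± 9.53 against 18.7 ± 10.8 CPM (SD, n = 8) and a lg2FC of 0.72 with a standard error of 0.28 (adjusted p = 0.847), which did not pass. Scg2 had 0.76 there (standard error 0.39), while Vgf had 0.13 (standard error 0.18). The summed level of the processing genes also had its highest median in Tph2-/- C, with 385 CPM against 326 in Tph2+/+ C. Of the genes that passed, Syt7 had a mean of 3.38 counts, Qpct 0.333 and Ece1 0.208. Syt7, a calcium sensor of granule release, summed to 36 counts under C and 20 after MS in Tph2+/+ mice, and to 23 and 37 in Tph2-/- mice (GE2 1.67, standard error 0.62, adjusted p = 0.901). Of the 20 counts 10 were in 1 mouse, and single mice of either Tph2+/+ group had from 1 to 10. Its MS effect did not pass in Tph2+/+ or in Tph2-/- alone. Qpct (glutaminyl cyclase) and Ece1 (endothelin-converting enzyme) had no more than 6 counts in any group, and Qpct passed for GE2 and MS in Tph2+/+ and Ece1 for GE1 and Tph2+/- against Tph2+/+ after MS, each against a group without a count.

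Of 44 tested genes of peptide receptors, with Crhbp, the secreted binding protein of corticotropin-releasing hormone, counted among them, 1 passed for GE2 (0.999% of all genes tested), for MS in Tph2+/+ (1.71%) and in Tph2+/- (1.05%), and for Tph2+/- (1.51%) and Tph2-/- (1.01%) against Tph2+/+ under C, and none in the other 4 comparisons. Oprm1, the mu opioid receptor and the target of enkephalins, had a mean of 65.4 counts, with 79.8 ± 8.90 CPM (SD, n = 8) in Tph2+/+ C and between 81.4 and 85.9 CPM in the other groups. Avpr2 and Sort1 followed with 11.2 and 8.31 counts, and these 3 did not pass in any comparison. Adcyap1r1, the receptor of the peptide PACAP, had 2 summed counts in Tph2+/+ mice under C and 16 after MS, in Tph2+/- mice 17 under C and 15 after MS, and in Tph2-/- mice 19 under C and 16 after MS. It passed for MS in Tph2+/+ (lg2FC = 2.39, standard error 0.82), for Tph2+/- (2.45, standard error 0.81) and Tph2-/- (2.60, standard error 0.80) against Tph2+/+ under C and for GE2 (-2.61, standard error 0.99), with adjusted p from 0.472 to 0.901, and all 4 values share the Tph2+/+ C mice. Its ligand gene Adcyap1 summed to 4 counts under C and 9 after MS in Tph2+/+ mice, to 1 and 4 in Tph2+/- mice and to 6 and 7 in Tph2-/- mice, and did not pass in any comparison. Npy1r, a receptor of neuropeptide Y, passed for MS in Tph2+/- with 6 summed counts, 4 of them in 1 mouse, against none.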

How the data were processed

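Total RNA of 48 amygdala samples was sequenced as stranded read pairs of 125 bases. The authors deposited unnormalized read counts for each Ensembl gene. Their processing notes name STAR, HTSeq, DESeq2 and GRCm38.p5, and give no versions; the annotation and the strand setting of the counting were not given in the sources used here. Positions and exons were taken from GENCODE M21 (GRCm38).

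Counts were fitted with edgeR 4.0.16 (R 4.3.3; TMM, quasi-likelihood test with robust estimation, Benjamini-Hochberg adjustment) in 1 model with 6 group coefficients. Genes with at least 1 count in at least 8 samples entered the fit, except Lars2, which the study also excluded. A DEG needed, as in the study, a nominal p under 0.01 with lg2FC beyond 0.2 in size. For single genes the adjusted p is printed, and the nominal p of the model serves for calls only. Standard errors are lg2FC divided by the square root of F and are not given above a p of 0.95. The fit was tested on simulated data for GE1, with known changes only in genes of higher counts than most of these.

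Given in full are Cck, the 8 genes with the largest mean count, those within a factor of 2 of the count of Cck and those called, and of the other lists the 3 most counted and those called. The 38 genes, the lists and the filter were chosen with earlier results of these data known. The list of 57 receptors, Crhbp included, held 56 genes of the table and that of 29 processing genes all. The 95% intervals of lg2FC come from the model and include the spread between mice, while the floor of 3 counts covers counting error alone. Alternatives were no filter, stricter filters, DESeq2 1.42.0 and its size factors, other gene and sample exclusions, the replicate block and leaving out each library. For calls and lg2FC, leaving out the 4 libraries with over 500000 counts on Gm42418 or single libraries was added after the data were seen. Same-numbered mice did not deviate together (14 of 120 pairs with r over 0.1, median r 0.0055).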

Additional observations from a re-analysis of the deposited data

Results flagged for a closer look

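Single mice stood apart from the other 7 of their group in 13 of 90 sets of values examined, where chance gives about 1 in 20 for normally distributed values and its rate for counts near 0 was not determined. For Cck this was the Tph2+/- MS mouse at 6.39 CPM, with the next at 1.36, and for Scg2 the Tph2-/- MS mouse at 29 CPM, with the next at 13.7. Chga had such a mouse in Tph2+/+ C (2.31 CPM, the others at 0), Tph2+/+ MS (5.65) and Tph2-/- MS (3.93). The others were Pomc in Tph2+/+ C (5.56 CPM), Crh in Tph2+/- C (3.94), Grp in Tph2+/+ MS (3.32), Npff in Tph2-/- C (5.39), Rln3 in Tph2-/- C (1.09, which is a single count) and A830012C17Rik in Tph2+/+ MS (413). On the low side stood Ctcf in Tph2+/+ C at 17.2 CPM and the summed level of the neuropeptide genes in Tph2+/- C at 51.2 CPM, with the next at 80.9.

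The MS effect differed between genotypes by the interaction test at a nominal p below 0.01 for 7 of the named genes. These were Ece1 (lg2FC = -4.12) and Slc17a7 (-2.81) for GE1 and, for GE2, Ctcf (-0.66), Qpct (-3.37), Syt7 (1.67), Adcyap1r1 (-2.61) and Gad1 (-1.37). The values of Ece1 and Qpct are fitted with groups without a count, depend on the prior count and give no size. Most of the 7 were named because they passed, and 1.88% of all genes tested did so for GE1 and 0.999% for GE2. The adjusted p values were between 0.271 and 0.901.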

How the results depend on the processing

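The number of neuropeptide genes past the threshold was 1 in place of 0 for GE1 with DESeq2, DESeq2 size factors, no robust estimation, Gm42418 out, Lars2 kept or the compared groups alone (each Cck), and without the 7 controls (Rln3). It was 1 for GE2 and for MS in Tph2-/- with DESeq2, no robust estimation, the replicate block or the compared groups alone, and 1 for Tph2-/- against Tph2+/+ under C with the last 2 (each Scg2). For MS in Tph2+/- it was 1 (Cck) without the 7 controls. For Tph2+/- against Tph2+/+ after MS it was 0 in place of 1 with both stricter filters, DESeq2, the compared groups alone or without the 4 libraries. Leaving out single libraries gave 0 to 1 in each of the 9 comparisons. The lg2FC of Cck for GE1 was then -2.19 with DESeq2, -2.07 with its size factors, -2.01 without robust estimation, -2.04 without Gm42418, -2.07 with Lars2 kept and -2.07 in the compared groups alone, and -1.53 for MS in Tph2+/- without the 7 controls. It changed sign for MS in Tph2-/- to 0.25 without the 4 libraries, and for Tph2-/- against Tph2+/+ under C to 0.24 without the 7 controls. It was -0.56 for MS in Tph2-/- without the 7 controls, in place of -0.08. Over single libraries left out it ran from -2.78 to -1.82 for GE1, -1.03 to -0.51 for GE2 (the latter without Tph2-/- C replicate 1), -2.05 to -1.10 for MS in Tph2+/-, -0.32 to 0.23 for MS in Tph2-/-, -0.36 to 0.12 for Tph2-/- against Tph2+/+ under C and -1.86 to -0.94 for Tph2+/- against Tph2+/+ after MS. The summed level of Tph2-/- C was 88.1% of the median of all mice without Scg2, Chga and Vgf, in place of 108%. The share of genes with the pattern of Cck was 29.9% in raw counts, and 8 genes lie opposite to gene bodies in place of 3 opposite to exons. The causes were not tested. The replicate block moved no other count of calls among these genes, and same-numbered mice share only a number. Each result under each alternative, single libraries aside, counts as 1 value here, so that a result is counted several times. Of the other values, 190 for main results and 114 for single genes kept direction and side. Counts of 0 to 6 per mouse, with 3 counts at 2.95 to 7.16 CPM, limit what can be seen of most of these genes.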
